A study of Citrus maxima with 6 samples.

Results

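Of the 29406 genes measured by RNA-Seq in pummelo pericarp, 41 were near silent in the wild type and were read in every library of its orange-pericarp mutant. The 41 genes were chosen by their values. Each had at most 0.5 RPKM in WT1, WT2 and WT3 and at least 1 RPKM in MT1, MT2 and MT3, where RPKM is a read count divided by the length of the gene model and by the size of the library. The limits were met by 42 genes, and Cs7g09860 was left out by the rule, which names 3 genes to drop. The WT was 'Guanxi' pummelo (Citrus grandis, also called Citrus maxima) and the MT was a bud mutant of it with the same cultivar background, in which the pericarp turns orange and holds much β-carotene. Untreated ripe pericarp was sampled in 3 biological replicates of each genotype, so the contrast is between these 6 libraries and rests on a single mutant. Whether the trees or fruits of a genotype were independent is not given in the sources used here.

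The pericarp of a citrus fruit holds the coloured flavedo with its epidermis and oil glands, and the white spongy albedo beneath it. A bud mutation arises in a shoot of one tree and is kept by grafting, so the mutant shares most of its genome with its parent. Each library was made from whole pericarp, a mixture of cell types. In such bulk samples, fewer cells of a type and less RNA per cell cannot be told apart.

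Names for these genes came from Swiss-Prot matches in the study's list of changed genes, of which 291 entries were used. The study chose that list on these same libraries. It held 15 of the 41 genes, 10 with a match and 5 without. The other 26 genes are given by identifier alone. The named genes fall into receptor-like kinases and signalling, transport, and enzymes. Some of them were also chosen by the study for qRT-PCR, and the primer pairs are shown because they tie each identifier to a stretch of transcript. Capitals mark the last 5 bases at the 3′ end, from which extension starts, and all are written 5′ to 3′. The qRT-PCR measurements were not analysed here.
Cs1g16010 forward: aaacagttttggcttctgATGCT
Cs1g16010 reverse: tgcttgtgaccgacaaaTTTCT
Cs8g08820 forward: ggccgcaaattcgGAACT
Cs8g08820 reverse: ggctggactctgttaccACCAT
Cs1g23090 forward: tgccgctactggtctgtGTAGT
Cs1g23090 reverse: cgtctgccttcaccAAAGC

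The libraries held between 9253681 (WT1) and 11108186 (MT1) reads behind the RPKM scale, recovered from the steps between the values. At this depth the WT values of the 41 genes rest on very few reads. On log2 values over the genes tested, a pair of WT libraries had a Pearson's r of at least 0.97. A pair of MT libraries had one of at least 0.946, and MT2 lay farthest from WT, with r of at most 0.92. MT3 had r of 0.964 to 0.968 with the WT libraries, but 0.961 with MT1 and 0.946 with MT2. By this measure MT3 was nearer to WT than to the other MT libraries. The median log2 difference of the genes tested was 0.15 in favour of MT. Swiss-Prot matches that mark parts of the peel differed by genotype too. They come from the genes the study called changed on these same libraries, so this was fixed by that choice. The 6 epidermis and surface lipid markers summed to 2485 to 3244 RPKM in WT and to 354 (MT2) to 2052 RPKM (MT3) in MT, none at 0 throughout a genotype. In WT, almost all of this sum came from the BAHD acyltransferase DCR genes Cs9g17800 and Cs9g17750 (means of 1376 and 1488 RPKM). In MT2 these DCR genes had 97.3 and 97.4 RPKM of the 354, beside 131 RPKM for Cs7g28170. Of the 6, 4 were lower in every MT library than in every WT library, and 2 were higher, Cs3g09300 (HDG5, mean RPKM of 2.11 in WT and 18.2 in MT) and Cs7g28170 (3-ketoacyl-CoA synthase 21, 44.1 and 112). The (R)-limonene synthase of oil glands, Cs5g22980, lay between 1.68 and 4.03 RPKM in WT and between 0.0494 and 0.280 RPKM in MT. The 3 stomatal markers summed to 23.9 to 28.6 RPKM in WT and 11.9 to 20.7 RPKM in MT, but the lower sum came from MUTE (Cs9g06130) alone, with means of 23.2 RPKM in WT and 3.85 RPKM in MT. The other 2 were higher in every MT library, Cs7g16890 (EPIDERMAL PATTERNING FACTOR-like protein 9), which was at 0 in all WT libraries and had a mean of 1.06 RPKM in MT, and orange1.1t00502 (ASPARTIC PROTEASE IN GUARD CELL 1, 2.96 and 10.6 RPKM). The xylem marker orange1.1t00281 lay between 10.8 and 18.5 RPKM in WT and between 4.63 and 9.35 RPKM in MT. All of these markers come from the study's list, and their part in the results for the 41 genes was not tested.

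The mean RPKM of the 41 genes ran from 0.0653 to 0.385 in WT, with a median of 0.236, and from 1.25 to 98.8 in MT, with a median of 2.76. By the study's limits of 3 and 15 RPKM, 23 were expressed at low, 16 at medium and 2 at high level in MT. The ratio of the means was between 3.36 and 280.5, with a median of 14.2. These values chose the genes and are a description. Without MT2 the median ratio was 8.86, without MT1 it was 15.2 and without MT3 it was 15.7. That every MT library lay above every WT library is fixed by the rule, and it held for 23.3% of the 16719 genes with a mean of at least 0.3 RPKM. All 41 passed this filter, but only 12 had a WT mean of at least 0.3 RPKM, so the others passed through their MT values. Of the 41 genes, 0 reached in limma on log2(RPKM + 0.5) a Benjamini-Hochberg adjusted p of 0.05, against 0.0179% of all genes tested that were called higher in MT, and 31 passed 0.1, against 2.02%. The 31 became 1 in limma voom, 0 without WT1, without WT2 or without WT3, 19 without MT1, 16 without MT2 and 40 without MT3. Of all genes tested, limma voom called 22 of 18051 higher at 0.1, and leaving out WT1, WT2 or WT3 gave 0. Over all genes the number was 118 of 16720 without MT1, 110 of 16558 without MT2 and 1456 of 16714 without MT3. At an unadjusted p of 0.05, 41 passed, against 16.9%, and limma voom on the recovered reads gave 0 at an adjusted p of 0.05. A ratio of means of at least 4 was reached by 39 of the 41 and by 3.04% of all genes tested. The rule used this contrast, so nothing is read from these counts.

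**Figure D1:**
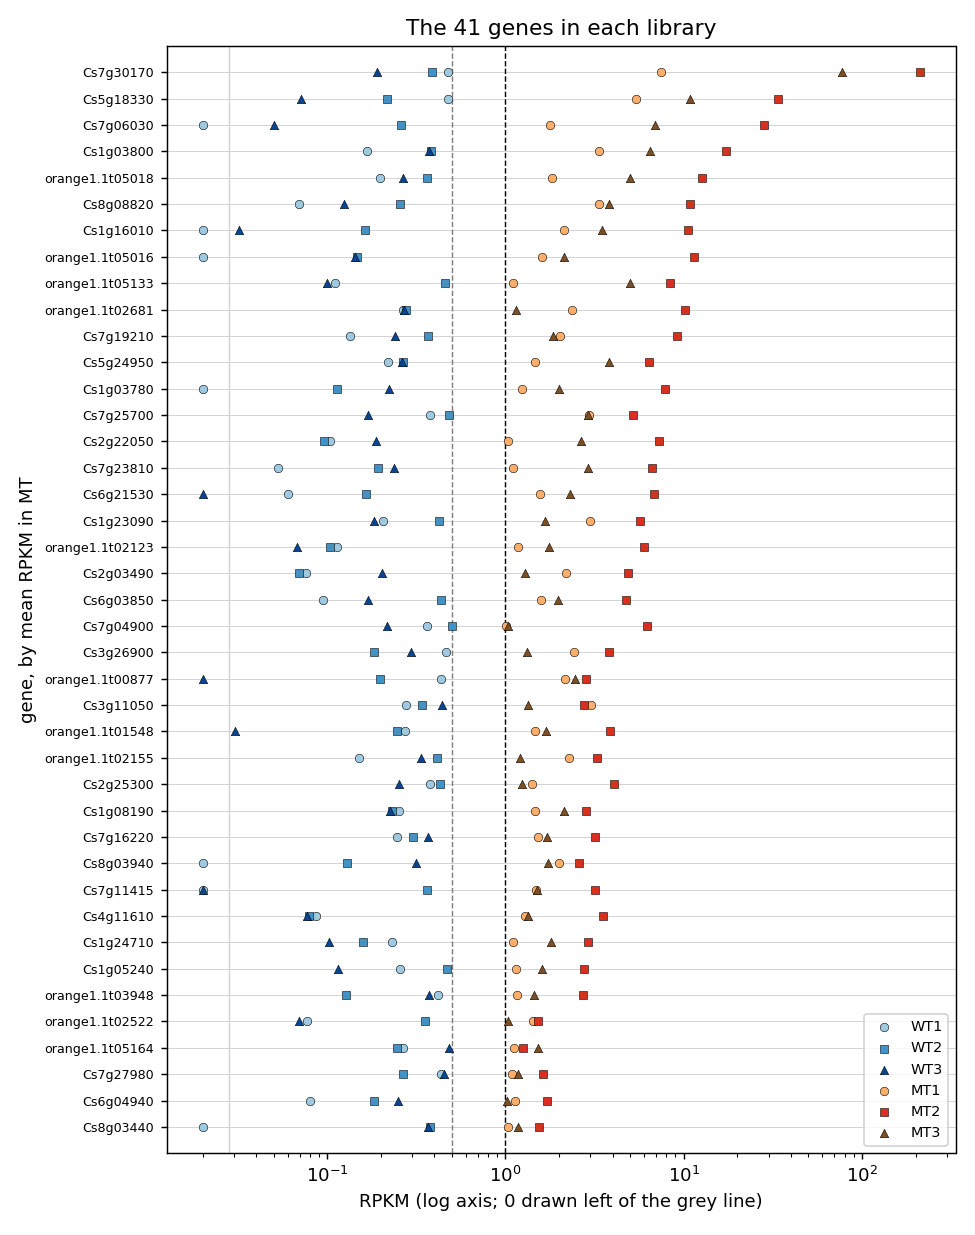
RPKM of each of the 41 genes (vertical axis, by mean RPKM in MT) in each library (horizontal axis, log scale), with WT libraries in blue, MT libraries in orange, red and brown, and dashed lines at the limits of 0.5 and 1 RPKM. The values chose the genes, and MT2, the red square, was the highest MT library in 39 of the 41.

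Cs7g30170 stood far above the other genes in MT. No name is tied to it in the sources used here. It had 0.478, 0.389 and 0.190 RPKM in WT1, WT2 and WT3 and 7.48, 211 and 77.6 RPKM in MT1, MT2 and MT3. The WT values rest on 9, 8 and 4 reads, while the MT libraries differed by 28.3 times, with MT1 lowest and MT2 highest. The mean was 0.352 ± 0.147 (SD, n = 3) for WT and 98.8 ± 104 (SD, n = 3) for MT, a ratio of 280.5, or 121 without MT2. This gene alone gave 44.1% of all MT reads of the 41 genes, with 5961 of 13532. Its reads were 21 in WT and 169 in MT1, 4248 in MT2 and 1544 in MT3. The genes whose pattern was most like it, by Pearson's r of log2(RPKM + 0.5) over the 6 libraries, were Cs5g24950 (r = 0.997), orange1.1t05018 (r = 0.992) and Cs1g24710 (r = 0.989). The 6 libraries fall into the 2 genotypes by the rule itself, which puts a high r between any pair of the 41.

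Further unnamed genes followed in level. Cs5g18330 had 0.476, 0.217 and 0.0709 RPKM in the WT libraries and 5.42, 33.8 and 10.9 RPKM in MT1, MT2 and MT3. Its ratio of means was 65.5, but 32 without MT2 and 116 without WT1. Cs7g06030 had no read in WT1, 0.258 RPKM in WT2 and 0.0506 RPKM in WT3, and 1.79, 28.1 and 6.90 RPKM in MT1, MT2 and MT3. Its spread was wide in both genotypes, since 5 of its 6 WT reads were in WT2 and its MT values differed by 15.7 times. The ratio of means was 119, with 42.2 without MT2, 79.3 without WT1 and 484 without WT2. Cs1g03800 had 0.167, 0.382 and 0.374 RPKM in WT and 3.35, 17.3 and 6.49 RPKM in MT. In each of these genes MT2 was the highest and MT1 the lowest MT library, as in Cs7g30170. The ratio of Cs1g03800 was 29.4, or 16.0 without MT2.

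Other unnamed genes were also among the 10 highest. orange1.1t05018 had 0.199, 0.364 and 0.267 RPKM in WT and 1.82, 12.6 and 4.99 RPKM in MT1, MT2 and MT3, a ratio of means of 23.4 that fell to 12.3 without MT2. orange1.1t05016 had 0, 0.147 and 0.144 RPKM in WT and 1.61, 11.4 and 2.13 RPKM in MT. The gene rests on only 2 WT reads against 102 MT reads. The ratio of reads, each taken per total of its libraries, was 49.3 (exact Clopper-Pearson 95% interval 13.3 to 412, for counting error only), and the ratio of its means went from 52.2 to 19.3 without MT2. orange1.1t05133 had 0.111, 0.456 and 0.0992 RPKM in WT and 1.11, 8.41 and 4.98 RPKM in MT, with a ratio of 21.8, which was 13.7 without MT2 and 46.0 without WT2. orange1.1t02681 had WT values close to each other, at 0.265, 0.277 and 0.271 RPKM, from 7, 8 and 8 reads. In MT it had 2.37, 10.2 and 1.15 RPKM, with MT3 lowest. Its ratio was 16.9, or 6.48 without MT2.

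Receptor-like kinases sense signals at the cell surface and pass them on by phosphorylation, and 3 of the 41 genes matched this family. Cs1g16010 matched the senescence-induced receptor-like serine/threonine-protein kinase of Arabidopsis, which was found by its induction in ageing leaves. It had no read in WT1, 0.164 RPKM in WT2 and 0.0321 RPKM in WT3, and 2.12, 10.6 and 3.49 RPKM in MT1, MT2 and MT3. It had the lowest WT mean of the 41, 0.0653 ± 0.0868 (SD, n = 3), beside 5.41 ± 4.56 (SD, n = 3) in MT. The ratio of 82.8 was 43.0 without MT2 and 337 without WT2, which held 5 of the 6 WT reads. Cs4g11610 matched a G-type lectin S-receptor-like kinase (At4g27290), of a family whose extracellular part resembles that of the S-receptor kinase of self-incompatibility. Its RPKM was 0.0861, 0.0787 and 0.0770 in WT and 1.29, 3.51 and 1.34 in MT, so MT1 and MT3 were alike and MT2 stood above them. With 2 reads in each WT library and 156 reads in MT, its ratio of means was 25.4, or 16.3 without MT2. orange1.1t01548 matched the leucine-rich repeat kinase At3g47570 and had 0.272, 0.248 and 0.0304 RPKM in WT and 1.47, 3.88 and 1.70 RPKM in MT, a ratio of 12.8. Its WT3 value rests on 1 read. Kinases of this kind occur in large families of similar genes, and reads that matched several copies are not in these values.

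The study's list held 12 receptor-like kinase matches, the 3 above included. With limma, 7 of the 12 were higher in MT at an adjusted p of 0.1 and 0 at 0.05, with 12 at an unadjusted p of 0.05 in either direction. Of all genes tested, 2.02% were higher at 0.1 and 21.8% passed the unadjusted p. Limma voom called 0 genes of the whole table at an adjusted p of 0.05, and so none of any list. Their MT libraries lay above every WT library in 9 and below in 3, against 23.3% and 5.36% of all genes tested, and the median log2 difference was 1.46, against 0.15 over all genes tested. The study chose its list on these same libraries, which fixes much of these counts and of the median, so nothing is read from them. The 3 kinases described here were near silent in WT by the rule, so they do not represent the family. Cs6g04940, a match to the interactor of constitutive active ROPs 2, belongs to signalling as well, since proteins of this group bind the ROP GTPases that steer cell shape. It had 0.0798, 0.182 and 0.250 RPKM in WT and 1.13, 1.72 and 1.02 RPKM in MT. Its MT libraries were close to each other, with a ratio of means of 7.56.

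Transport proteins made up the next group. Cs8g08820 matched the probable aquaporin PIP2-6 of rice, a water channel of the plasma membrane. It had 0.0696, 0.255 and 0.125 RPKM in WT1, WT2 and WT3 and 3.36, 10.9 and 3.82 RPKM in MT1, MT2 and MT3. MT1 and MT3 were near each other and MT2 was 3.24 times MT1. The mean was 0.150 ± 0.0950 (SD, n = 3) for WT and 6.02 ± 4.22 (SD, n = 3) for MT, a ratio of 40.3, with 24 without MT2 and 62.0 without WT2. Its lowest MT library was 13.2 times its highest WT library. A gap is built in by the rule, and that highest WT value, in WT2, rests on 4 reads. Cs7g16220 matched TRANSPARENT TESTA 12, an Arabidopsis transporter that loads flavonoid precursors into the vacuole of seed coat cells. Its RPKM was 0.248, 0.302 and 0.370 in WT and 1.52, 3.18 and 1.72 in MT, a ratio of 6.97 that changed little among libraries. Cs3g11050 matched importin subunit alpha-1a of rice, an adaptor that carries proteins into the nucleus. At 0.276, 0.342 and 0.440 RPKM in WT and 3.02, 2.75 and 1.34 RPKM in MT, it was the only one of the 41 with MT1 as the highest library. It was also the gene with the most WT reads, 58 over the 3 libraries against 405 in MT, and with the longest model, 5491 bp.

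The study's list held 25 membrane transporter and channel matches, Cs8g08820 and Cs7g16220 among them. At an adjusted p of 0.05, limma called 0 of the 25 higher and 1 lower in MT, and at 0.1 it called 8 higher and 4 lower, where 2.02% and 0.538% of all genes tested were called. The median log2 difference of these 25 was -1.0. Their MT libraries lay below every WT library in 14 and above in 10, against 5.36% and 23.3% of all genes tested. The study's choice of these matches on the same libraries fixes much of this, so nothing is read from the counts.

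Enzymes and enzyme-like proteins formed the last named group. Cs1g23090 and Cs3g26900 both matched an L-ascorbate oxidase homolog, from tobacco and from oilseed rape, members of the multicopper oxidase family that were described in pollen. Cs1g23090 had 0.206, 0.423 and 0.184 RPKM in WT and 3, 5.69 and 1.66 RPKM in MT1, MT2 and MT3. Cs3g26900 had 0.464, 0.182 and 0.297 RPKM in WT and 2.43, 3.79 and 1.32 RPKM in MT. Both had their highest MT value in MT2 and their lowest in MT3, and their ratios of means were 12.7 and 7.99. As they are similar proteins by name, reads shared between copies may be missing from either. Cs1g24710 matched a 3-epi-6-deoxocathasterone 23-monooxygenase of Arabidopsis, a cytochrome P450 of brassinosteroid synthesis. It had 0.231, 0.158 and 0.103 RPKM in WT and 1.11, 2.92 and 1.80 RPKM in MT, a ratio of 11.8 that was 8.86 without MT2.

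In the study's list, the 13 cell wall enzyme and wall protein matches, which include both ascorbate oxidase homologs, held 9 with MT libraries above every WT library and 4 below, against 23.3% and 5.36% of all genes tested. Limma called 0 of them at an adjusted p of 0.05, 13 at an unadjusted p of 0.05, and 8 higher and 1 lower at 0.1, with a median log2 difference of 1.96. Of the 10 cytochrome P450 matches, Cs1g24710 included, 0 passed 0.05 and 10 an unadjusted p of 0.05, while 5 passed 0.1 higher and 1 lower, with a median of 1.34. Over all genes tested, 2.02% were higher and 0.538% lower at 0.1, and 21.8% passed the unadjusted p. None of the 15 disease resistance protein, 10 lipase and esterase, 6 microtubule protein, 15 glycosyltransferase and acyltransferase or 26 transcription factor matches was among the 41 genes. Of the 15 disease resistance matches 13 were tested, and the counts and the median of that list are over these 13. At an adjusted p of 0.1, limma called 12, 6, 6, 3 and 11 of these lists higher in MT and 0, 2, 0, 0 and 8 lower. Their median log2 differences were 1.44, 1.97, 2.27, -1.0 and -0.90, beside 0.15 over all genes tested. The study's choice of these genes on the same libraries fixes much of this, so the counts are no independent evidence.

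In reads, the 41 genes together had 128, 197 and 143 reads in WT1, WT2 and WT3 and 1615, 8776 and 3141 reads in MT1, MT2 and MT3. Cs7g30170 gave at most 9 reads of each WT sum, and without it the MT sums were 1446, 4528 and 1597 reads. The sums of MT1 and MT3 were then close to each other, and MT2 held the larger part. A single gene had between 2 and 58 reads over the 3 WT libraries, with a median of 9, and 23 of the 41 had at most 10. None was at 0 in all WT libraries, but 9 were at 0 in at least 1 of them, with 7 at 0 in WT1, 0 in WT2 and 3 in WT3. In MT, 37 of the 41 had at least 10 reads in each library. For the 6 genes with at most 3 reads in WT, the ratio of reads has a wide counting interval. Cs7g11415 rests on 2 reads, both in WT2, against 34 in MT, with a ratio of 16.4 (exact Clopper-Pearson 95% interval 4.21 to 141). Cs8g03440, the shortest model of the 41 with 261 bp, rests on 2 reads in WT and 10 in MT, with a ratio of 4.83 and an interval of 1.03 to 45.3. Both genes were chosen here for their few reads after the values had been seen.

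**Figure D2:**
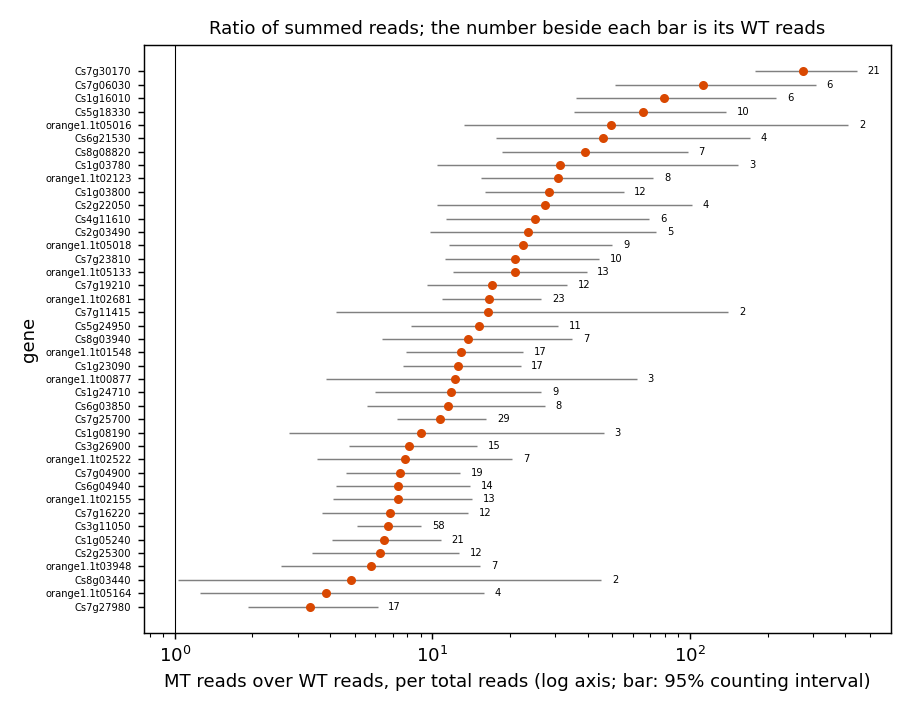
MT reads over WT reads, each taken per library total (horizontal axis, log scale), for each of the 41 genes (vertical axis), with the exact 95% interval for counting error as a bar and the number of WT reads beside it. The interval of Cs7g30170, with 21 WT reads, is narrow beside those of orange1.1t05016 and Cs8g03440, with 2 WT reads each.

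Which genes met the rule depended on small differences near the limits. Inside the WT limit, the nearest were Cs7g04900 (0.499 RPKM in WT2), Cs7g25700 (0.485 in WT2) and orange1.1t05164 (0.480 in WT3). Outside it were Cs7g31640 (0.503 in WT3), orange1.1t03822, a match to dehydration-responsive element-binding protein 3 (0.508 in WT3), and Cs6g07140, a match to a probable peptide/nitrate transporter (0.509 in WT2), each with at least 1.20 RPKM in every MT library. Inside the MT limit, the nearest were Cs7g04900 (1.01 in MT1), Cs6g04940 (1.02 in MT3) and orange1.1t02522 (1.03 in MT3). Outside it were Cs8g12715 (0.986 in MT2), Cs8g16690 (0.974 in MT3) and Cs1g01220 (0.968 in MT3). Beyond the nearest, 143 genes met the MT limit with their highest WT value between 0.5 and 1 RPKM, and 124 genes met the WT limit with their lowest MT value from 0.5 to just under 1 RPKM. No gap in either value separated the 41 genes from those outside the limits.

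**Figure D3:**
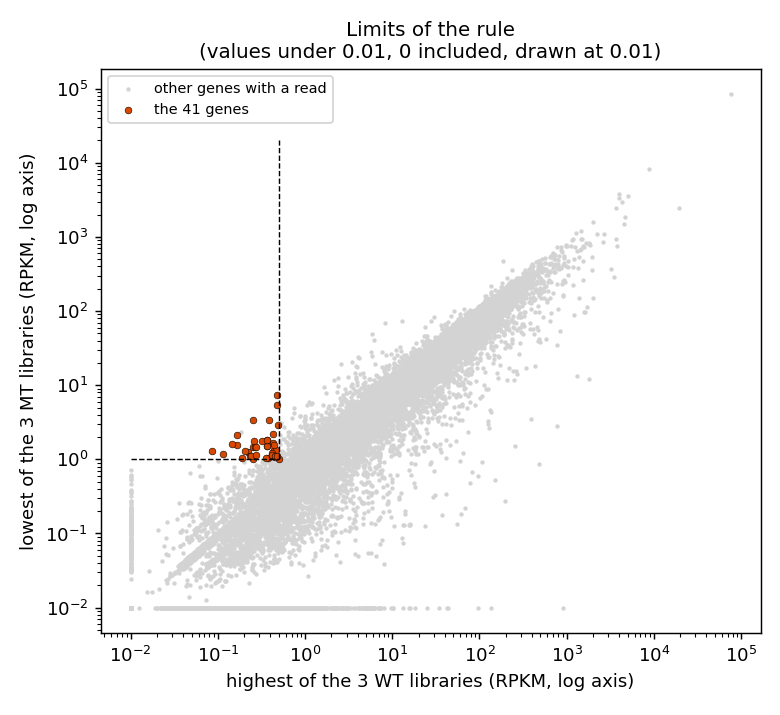
Highest WT library against lowest MT library (RPKM, both axes on a log scale) for the 23454 genes with a read, with the limits of 0.5 and 1 RPKM as dashed lines and the 41 genes as filled points. The grey point within the limits is the gene the rule drops, and the points cross the limits with no gap.

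When a library was left out and the rule was applied to the other 5, the number of genes depended on which library it was. Without MT2, 43 genes met the rule, with a median of 4.72 RPKM in MT2, and 41 of them had at least 1 RPKM there. Without MT1 89 genes met it, of which 41 reached 1 RPKM in MT1 and 74 lay above every WT library in MT1. Without MT3 it was 70 genes, with 41 at 1 RPKM in MT3 and 65 above every WT library. For the WT libraries, 61, 62 and 54 genes met the rule without WT1, WT2 and WT3, and 60, 61 and 53 of them lay below every MT library in the library left out. Among these genes the limits were thus missed far more often in MT1 and MT3 than in MT2. Of all genes with at least 1 RPKM in the other 2 MT libraries, 97.6% reached it in MT1, 98.9% in MT2 and 98.1% in MT3. For at most 0.5 RPKM in the WT libraries the shares were 98%, 98% and 97.9% in WT1, WT2 and WT3. The rule on the other 5 libraries already separated the genes by genotype. No share over all genes was taken for the counts above or below the other genotype, so nothing is read from them. The libraries of a genotype are the same kind of sample, and no test was made.

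The same imbalance appeared in all genes near silent in WT. At most 0.5 RPKM in each WT library was found for 13159 genes, of which 365 reached 1 RPKM in at least 1 MT library, 121 in at least 2 and 42 in all 3. MT1 held 103 such genes, MT2 316 and MT3 109, and 197 of those in MT2 reached 1 RPKM in no other MT library. With the limits exchanged, 12491 genes had at most 0.5 RPKM in each MT library, of which 100 reached 1 RPKM in at least 1 WT library, 31 in at least 2 and 9 in all 3. WT1 held 28, WT2 43 and WT3 69 of these. Genes on in MT thus outnumbered genes on in WT, by 41 to 9 when the genes the rule drops are left out, and by 34 to 11 after the libraries were rescaled by the median ratio. Without MT1 the numbers were 89 and 11, without MT2 43 and 10, without MT3 70 and 43, and without WT1 61 and 24. The 9 genes on in WT had means of 1.28 to 6.74 RPKM in WT, with a median of 2.84 RPKM, beside the median of 2.76 RPKM for the 41 genes in MT.

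**Figure D4:**
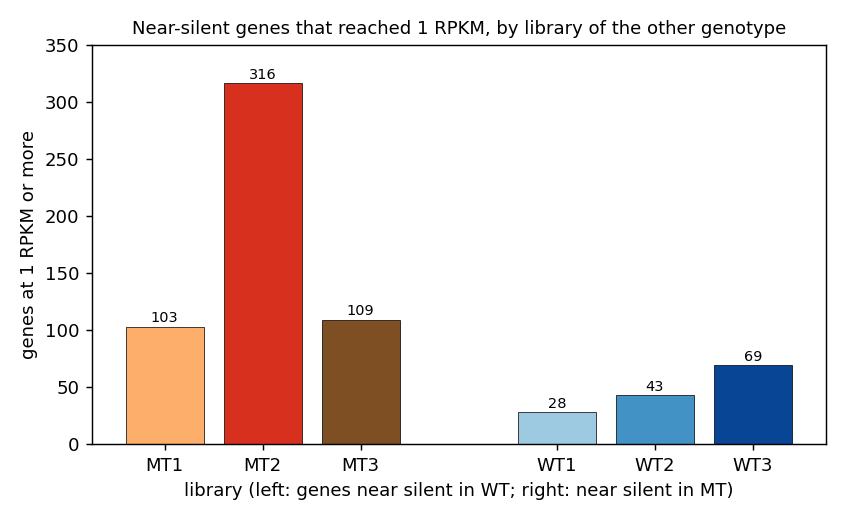
Number of genes near silent in one genotype (at most 0.5 RPKM in each of its 3 libraries) that reached 1 RPKM in each library of the other genotype. MT2 holds 316, above MT1 (103) and MT3 (109), and the WT libraries hold 28 to 69.

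The order of the MT libraries was not used by the rule. MT2 was the highest of them in 39 of the 41 genes, with Cs3g11050 (highest in MT1) and orange1.1t05164 (highest in MT3) as the exceptions. MT1 was the lowest in 29 and MT3 in 12. The full order from MT2 over MT3 to MT1 was found in 28 genes and that from MT2 over MT1 to MT3 in 11. Among all 16719 genes tested, MT2 was the highest in 46.3%, and among the 13434 with an MT mean in the range of the 41 it was the highest in 46.6%. Among the 470 other genes with a ratio of means of at least 4 in MT it was the highest in 86.4%, so a high share for MT2 was common to genes that were much higher in MT. MT1 was the lowest in 70.7% of the 41 and in 50.6% of those 470 genes. After rescaling by the median ratio, MT2 was the highest in 38 of the 41, in 36.2% of all genes tested and in 85.1% of those 470. The difference between these shares was not tested, since genes of a library are not independent.

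**Figure D5:**
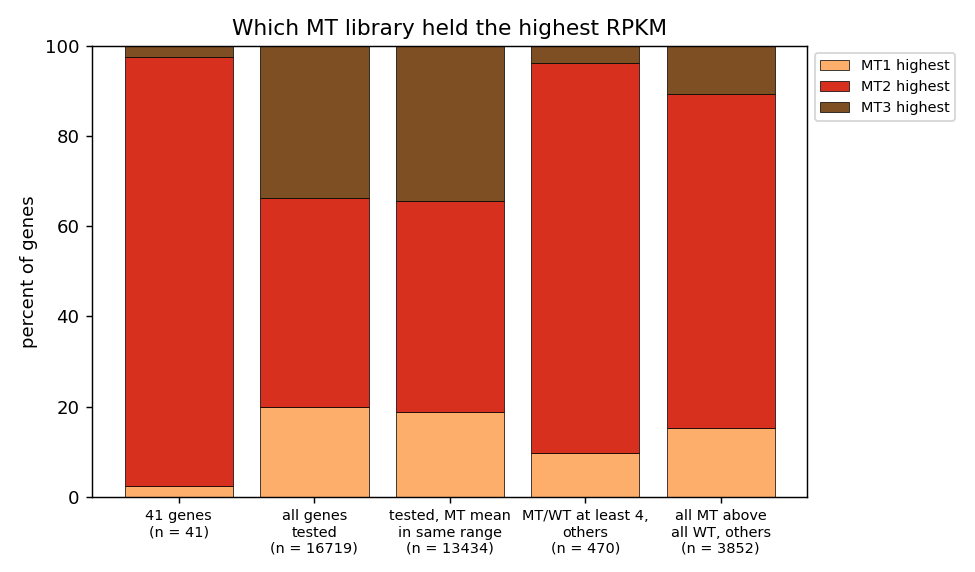
Percent of genes (vertical axis) in which MT1, MT2 or MT3 held the highest RPKM, for the 41 genes, all genes tested, those of like MT mean, other genes with a ratio of means of at least 4, and other genes with every MT library above every WT library. MT2 was the highest in 95.1%, 46.3%, 46.6%, 86.4% and 74.1%.

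The size of the spread followed the order. The highest MT library was 1.31 to 28.3 times the lowest, with a median of 3.24, against 1.46 over all genes tested and 3.64 over the 470 other genes with a ratio of at least 4. In 22 of the 41 genes MT2 was at least 2 times both other MT libraries, while in 9 the 3 MT libraries lay within 2 times of each other. The latter include orange1.1t00877, at 2.17, 2.84 and 2.46 RPKM in MT, Cs8g03940, at 2.01, 2.59 and 1.74 RPKM, and Cs7g25700, at 2.94, 5.22 and 2.90 RPKM. These examples were chosen after their values had been seen. Of the 41, MT3 was above MT1 in 29, with a median of MT3 over MT1 of 1.16. In WT, the highest library was WT2 in 21, WT1 in 10 and WT3 in 10 genes. WT2 was also the highest in 43.5% of the 5351 genes that had a read in WT and at most 0.5 RPKM in each WT library, against 25.5% of all genes tested.

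The length of the gene models was not part of the rule. The length behind the RPKM values had a median of 1526 bp over the 41 genes, against 1729 bp over the genes tested, and ran from 261 to 5491 bp. By the chromosome number in the identifier, 9 of the 41 were of the Cs7 series, 7 of Cs1, 3 each of Cs2, Cs6 and Cs8, 2 each of Cs3 and Cs5, 1 of Cs4 and 0 of Cs9. The remaining 11 had identifiers that begin with orange1.1t and name no chromosome. Cs7 held 22% of the 41 and 11.9% of the genes tested, and orange1.1t held 26.8% and 15.3%. With 41 genes such shares rest on few genes, and they were not tested. Genome positions were not analysed here.

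A few of the genes lay near each other by identifier. Cs1g03780 and Cs1g03800 were both among the 41, with Cs1g03790 between them at 0 in all libraries except MT2 (0.0607 RPKM). Cs1g03780 had 0, 0.113 and 0.222 RPKM in WT and 1.24, 7.90 and 1.99 RPKM in MT, the same order of MT libraries as Cs1g03800. orange1.1t05016 and orange1.1t05018 were likewise separated by orange1.1t05017, which had no read in any library. Beside Cs1g16010, the kinase match, Cs1g16000 matched the GDSL esterase/lipase APG and had 0.656, 4.19 and 0.293 RPKM in WT and 23.3, 69.3 and 25.6 RPKM in MT, which missed the WT limit. Such pairs were looked for after the values had been seen. Where gene models lie close together, reads that run past the end of one can be counted for the next, and whether the counting used the strand is not given in the sources used here. Over all 80 next identifiers that were not among the 41, 40, or 50%, had at most 0.5 RPKM in all 6 libraries, beside 41.2% of the genes in the table. Of the 38 that were tested, 8, or 21.1%, had every MT library above every WT library, beside 23.3% of all genes tested, and their median log2 difference was 0.18, beside 0.15.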

How the data were processed

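The deposited values are RPKM for 29406 genes in 6 libraries, which the authors derived from single-end reads of 100 bp that mapped uniquely, with at most 2 mismatches, on the genome and gene models of sweet orange, a related species. The aligner was TopHat, and the submitters' processing notes also name Bowtie2 2.1.0. The read counter and any scaling between libraries are not given in the sources used here. Reads of diverged or duplicated genes can be missing from both genotypes.

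Every value was turned back into whole reads within 0.005 reads for 23454 of 23454 genes with a read, using library totals recovered from the steps between values, and these reads sum to 99.7% of the totals. Ratios of reads were divided by these totals, with exact Clopper-Pearson 95% intervals for counting error only. For the fit over all genes, 0.5 was added to RPKM, log2 was taken, and genes with a mean of at least 0.3 RPKM were tested with limma 3.58.1 in R 4.3.3 (eBayes with trend, two-sided, Benjamini-Hochberg adjustment at 0.05), MT minus WT. The fit was tested on simulated data. Nothing is read from that check for genes with few WT reads or for the wide spread among the MT libraries. The rest used scipy 1.17.1, pandas 2.3.3, numpy 2.4.6 and matplotlib 3.10.9 in Python 3.11.15. Fold values of low genes on the log2(RPKM + 0.5) scale understate the change, so ratios of mean RPKM are given.

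The 41 genes and the gene lists were chosen with earlier results of these data known. Named are all genes of the set with a Swiss-Prot match in the study's list, the 10 highest in MT, the 3 nearest to each limit on either side, and the 3 most like the highest gene. Cs7g11415, Cs8g03440, orange1.1t00877, Cs8g03940, Cs1g03780 and the genes next to others by identifier fall outside this rule and were named after their values had been seen. None had 0 reads in every WT library. The study's own fold changes and p-values, and its qRT-PCR values, were not used. The study's replicates are called biological, and any spread measured here is between these libraries.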

Additional observations from a re-analysis of the deposited data

How the results depend on the processing

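The number of genes that met the rule was 6 with a WT limit of 0.2 RPKM, 7 with an MT limit of 2 RPKM, 29 with limits of 1 and 2 RPKM, 34 after rescaling by the median ratio and 42 after rescaling to equal sums. With limits on reads (at most 3 over the WT libraries and at least 10 in each MT library), chosen after seeing the data, it was 6, of which 3 were among the 41. Leaving out single libraries gave 43 (without MT2) to 89 (without MT1) genes.

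The 6 genes called by limma over the whole table at an adjusted p of 0.05 became 10 with a pseudocount of 0.1, 47 without a filter, 11 after rescaling by the median ratio, 15 without the trend and 0 with limma voom, which gave 3807 genes at an unadjusted p of 0.05. Without the filter, 0 of the 41 were higher in MT at an adjusted p of 0.1, beside 49 of all 29406 genes. Leaving out single libraries gave numbers from 0 (without WT1, without WT2 or without WT3) to 863 (without MT3). Of the 41 genes, 0 to 24 were then called higher in MT. The 24 were found without MT3, where 549 of 16714 genes tested were called higher. Without MT2 the whole table gave 11 genes. With a replicate block it gave 122, of which 91 of 16719 tested were higher in MT, 7 of the 41 among them. Libraries of the same number had deviations that correlated at -0.0458, 0.193 and 0.158. WT2 and WT3 correlated best with the MT library of their own number, but WT1 with MT3 (0.157). Whether the numbers mark pairs is not given in the sources used here, and they were not taken as a pairing.

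The median log2 ratio of the 41 genes, 3.83, kept within 3.15 (without MT2) and 4.14 (without WT2), and MT2 stayed the highest MT library in 38 or 39 of the 41 under rescaling; both checks were chosen after seeing the data. Of 180 log2 differences of 18 named genes under the alternatives, 157 moved by less than the spread between replicates, and their sign is fixed by the rule. The other 23 moved with the pseudocount alone, which for genes with so few WT reads sets much of the value. The depth, with 2 to 58 WT reads a gene, limits how low a WT level can be stated.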
